A study of Mus musculus with 4 samples.

Results

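The 4 Hox clusters of the mouse were described in MLg cells, a fibroblast line from mouse lung, from the ends and the contacts of H3K4me3 HiChIP read pairs. The members were chosen by name, as the protein-coding genes of the annotation whose symbols start with Hoxa, Hoxb, Hoxc or Hoxd. The annotation holds 39 of them, and 38 were analysed here, 10 in Hoxa, 10 in Hoxb, 9 in Hoxc and 9 in Hoxd, among 21755 protein-coding genes on chromosomes 1 to 19 and X. The other member was not analysed here. HiChIP ligates pieces of chromatin that lie close together, precipitates those that carry a chosen histone mark and sequences both ends of each ligated piece, so that a read pair reports a contact and its ends pile up where the mark is. There were 4 conditions, all in the same single cell line, with 1 library each. Control cells received neither the miR-9 antagomiR nor the growth factor. In TGFB1, the profibrotic cytokine was present at 5 ng/ml for the last 4 h. In miR-9-LOF, miR-9 was blocked by 60 nM of an antagomiR against it, without TGFB1. In TGFB1+miR-9-LOF, cells received that antagomiR and then TGFB1 at the same dose and for the same time. All cells were collected 24 h after transfection. The study's methods give a control antagomiR to the Control and TGFB1 cells, while the sample labels name none.

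Hox genes code for homeodomain transcription factors that tell cells where they lie along the body axis. The mammalian genes stand in 4 clusters that arose from 1 by duplication, and genes in the same place in different clusters form paralogue groups, numbered from the 3′ end of the cluster (group 1, used in the hindbrain) to the 5′ end (group 13, used in the tail, genitals and digits). The order of the genes on the chromosome follows the order of their expression in the embryo, and adult fibroblasts keep much of the Hox pattern of the place they came from. H3K4me3 is laid down at the starts of active genes by Trithorax complexes, Polycomb complexes hold the other Hox genes silent, and the boundary between the marked and the silent stretch falls at different genes in cells from different places. The Hoxa and Hoxd clusters lie between large gene-poor regions with many enhancers, one on each side.

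The libraries held 15359978 (Control), 10864558 (TGFB1) and 14121095 (TGFB1+miR-9-LOF) valid pairs. The last library, miR-9-LOF without TGFB1, held 15568047, and values of the libraries are given in this order wherever 4 follow each other. The level of a promoter is given as the number of pair ends in the 4 kb centred on its transcription start site (TSS), per kb, over the mean of its chromosome in the same library, so that windows of equal length are compared. A promoter was called marked where this level was at least 4-fold in each of the 4 libraries. The contrast between marked promoters and the rest of the genome differed between libraries. The 4233 marked promoters had a median level of 12.2-fold in the Control library, and of 8.87, 5.41 and 6.27-fold in the others. With 1 library per condition there is no replicate error, no test between conditions was run, and every interval below is a 95% interval of counting error only. Where 19.5% of all coding promoters were marked, 5 of 10 fibroblast genes were (Pdgfra, Pdgfrb, Vim, Twist1 and Prrx1). The unmarked fibroblast genes were Col1a1, Fn1, Col1a2, Thy1 and Col3a1, with mean levels over the libraries of 5.43, 2.85, 2.68, 1.69 and 1.13-fold. Of 5 genes of lung mesenchyme, 2 were marked (Tbx5 and Foxf1). The unmarked ones were Tbx4, Wnt2 and Tcf21, with mean levels of 1.66, 1.54 and 1.08-fold. None of 6 epithelial, 4 endothelial or 3 blood genes was marked, and 1 of 3 mesothelial genes (Msln) and 1 of 3 genes of limb and tail mesenchyme (Tbx15) were. Lists of 3 to 6 genes with none marked are too short to show that the cell type was absent.

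With the start sites used here, Hoxa, Hoxb and Hoxc each held marked promoters and Hoxd held none. The 6 marked members were Hoxa4, Hoxa5, Hoxb2, Hoxb7, Hoxb9 and Hoxc6, which is 6 of 38 where 19.5% of all coding promoters were marked. Against the mean of the surrounding 1 Mb on either side in place of the chromosome, 2 of them (Hoxa4 and Hoxa5) kept the call, and with windows of 5 kb on either side 0 did. With the start at the 5′ end of the gene record, 4 kept the call (Hoxa4, Hoxa5, Hoxb7 and Hoxb9), so that Hoxc held none. Per MboI site in place of per kb, 7 members were marked, with Hoxc6 lost and Hoxa3 and Hoxc8 added. Without the TGFB1+miR-9-LOF library 8 were marked, with Hoxa2 and Hoxc4 added, and without any of the others the same 6. The call asks for 4-fold in each library kept, so leaving a library out cannot lower the count. The share of all coding promoters marked was not counted under these other settings. A loss or gain among the members is therefore not told apart from one among all promoters. In Control alone, the library with the highest contrast, 18 of 38 members stood at 4-fold or more (5 in Hoxa, 8 in Hoxb, 5 in Hoxc and 0 in Hoxd), where 38.3% of all coding promoters did. At a limit of 2-fold in each of the 4 libraries the count was 20 of 38 (6, 8, 6 and 0), where 42.3% of all promoters passed. Taken over all 38, these shares were not far from those of other promoters, and the differences lay between and along the clusters. The median Hox promoter of Hoxa, Hoxb and Hoxc stood at percentiles 62.6, 72.2 and 68.0 of all coding promoters, and that of Hoxd at percentile 28.1.

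**Figure D1:**
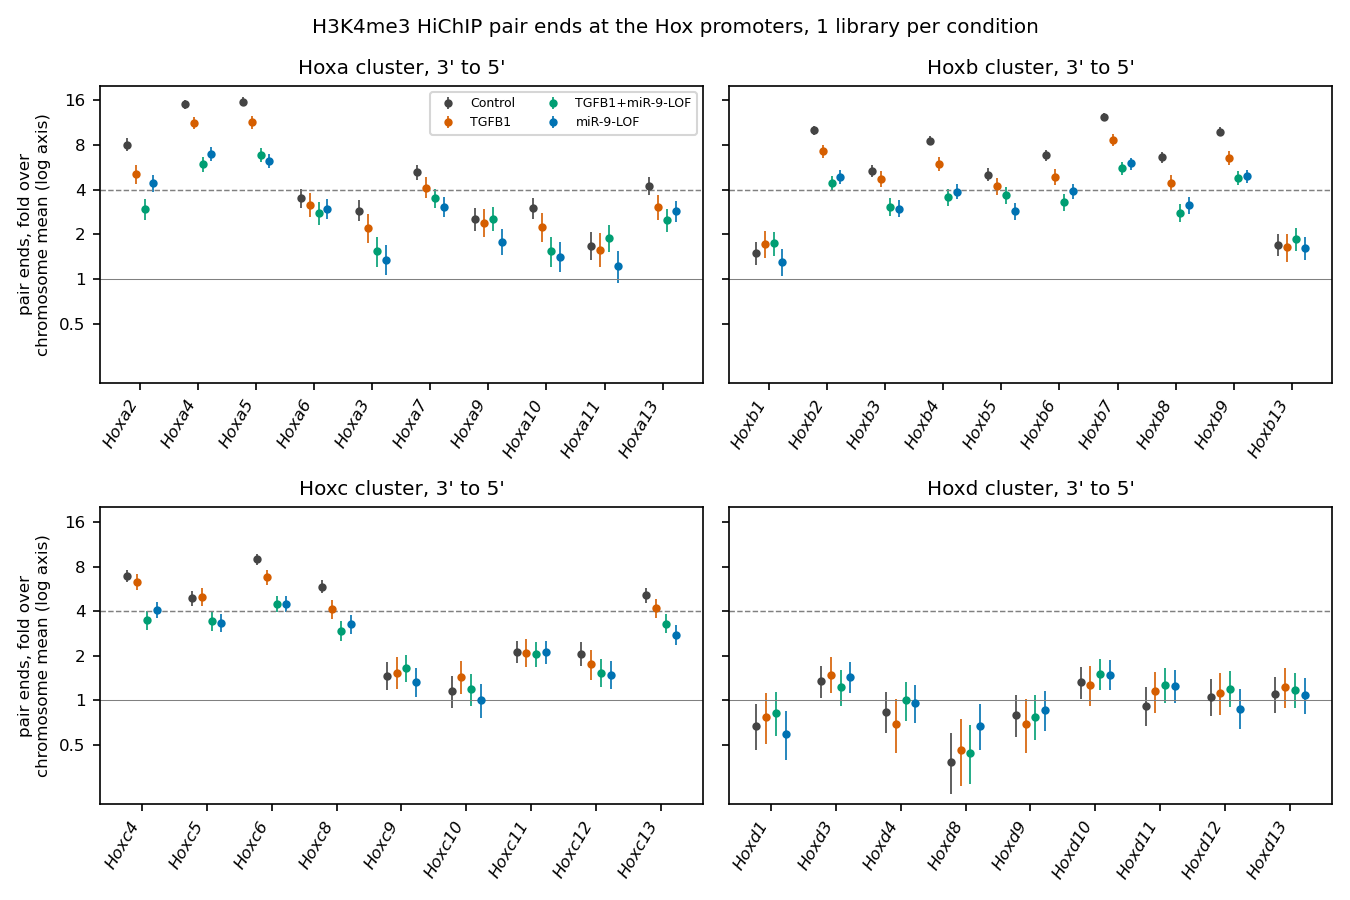
Level of each of the 38 Hox promoters, as the fold of pair ends within 2 kb of the TSS over the chromosome mean (log scale) in the 4 libraries. Members stand in the order of their starts from the 3′ to the 5′ end of each cluster, with Hoxa3 between Hoxa6 and Hoxa7. Hoxa5 (15.7 in Control) and Hoxb7 (12.4 in Control) have the highest mean levels of Hoxa and Hoxb, the largest falls in mean level lie between Hoxa5 and Hoxa6, between Hoxb9 and Hoxb13 and between Hoxc8 and Hoxc9, and the highest value of any Hoxd promoter is 1.51.

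In the Hoxa cluster (chr6:52155590-52260880 in mm10) the level was highest over 2 neighbouring genes and fell between Hoxa5 and Hoxa6. Hoxa5, which is needed for the formation of the trachea and lung, had the highest mean level of all 38 members, with 809, 419, 336 and 334 ends, or 15.7-fold [14.6, 16.8], 11.4-fold [10.3, 12.5], 6.90-fold [6.18, 7.68] and 6.27-fold [5.61, 6.98]. Hoxa4, the next gene on the 3′ side, was at 15.0, 11.3, 5.91 and 6.98-fold, above Hoxa5 in miR-9-LOF, and the intervals of both genes overlapped in each library. Both stood at percentiles 94.9 (Hoxa5) and 94.5 (Hoxa4) of all coding promoters by their mean level. Hoxa2, a hindbrain and branchial arch gene, was at 8.05, 5.07, 2.96 and 4.41-fold and missed the limit in TGFB1+miR-9-LOF only. From Hoxa5 to Hoxa6, 4.135 kb further toward the 5′ end, the mean level over the libraries fell 3.25-fold, the steepest step of the cluster in mean level. It fell there in each library, although in miR-9-LOF the fall from Hoxa6 to the start used for Hoxa3 was steeper (log2 -1.13 against -1.08). Hoxa6 was at 3.51, 3.15, 2.77 and 2.96-fold, and Hoxa7 at 5.22, 4.12, 3.49 and 3.08-fold. The lowest member by its mean was Hoxa11, which patterns the forearm and the uterus, at 1.67, 1.57, 1.89 and 1.22-fold. The level rose again at the 5′ end, where Hoxa13, a gene of the digits, hindgut and genitals, was at 4.23, 3.04, 2.48 and 2.85-fold. Hoxa3, which patterns the pharyngeal region, did not stand in the order of its number. The start used for it lies between those of Hoxa6 and Hoxa7 and had 2.89, 2.20, 1.54 and 1.35-fold, while its other coding start, 3′ of Hoxa4, had 4.44, 3.50, 2.48 and 2.80-fold.

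The upstream sequence of Hoxa5 is shown because its window had the highest mean level of the members, which the counting error does not separate from that of Hoxa4. The 250 bases before its start (chr6:52204588-52204837, minus strand, GRCm38, outside annotated exons) read as follows, 5′ to 3′, with each CpG in capitals.
Hoxa5: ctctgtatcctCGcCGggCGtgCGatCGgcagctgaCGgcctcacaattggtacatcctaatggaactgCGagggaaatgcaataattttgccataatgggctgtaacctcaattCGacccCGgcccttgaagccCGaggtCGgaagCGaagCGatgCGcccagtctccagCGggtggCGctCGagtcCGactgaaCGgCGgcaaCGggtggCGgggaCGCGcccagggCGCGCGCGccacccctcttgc
They hold 28 CpG, where the median of all coding promoters was 9.

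The Hoxb cluster (chr11:96194316-96368256) had high promoters from Hoxb2 to Hoxb9, and its members were low only at the 2 ends. Hoxb7 was the highest, with 977, 472, 383 and 450 ends, or 12.4-fold [11.6, 13.2], 8.65-fold [7.88, 9.46], 5.58-fold [5.04, 6.17] and 6.003-fold [5.46, 6.58]. Hoxb2, a hindbrain gene, was at 10.03, 7.25, 4.45 and 4.87-fold. Hoxb9, a gene of the thoracic segments, was at 9.84, 6.54, 4.80 and 4.92-fold. These 3 were the marked ones, and the 5 genes between them that were not marked were all at least 4-fold in Control and TGFB1 and at least 2.80-fold in the other libraries. Among these 5, Hoxb4, known for its part in blood stem cells, was at 8.57, 5.99, 3.56 and 3.88-fold. Hoxb5, which acts in the branching of the lung, was at 5.06, 4.21, 3.66 and 2.86-fold. The intervals of Hoxb2 and Hoxb9 overlapped in each library, so the order of their levels is not resolved. Hoxb1, a gene of hindbrain rhombomere 4, had the lowest mean of the cluster, at 1.49, 1.72, 1.74 and 1.29-fold. The steepest fall, 3.84-fold in mean level, was from Hoxb9 to Hoxb13, which lie 77.1 kb apart. Hoxb13, a gene of the tail and prostate, was at 1.69, 1.63, 1.85 and 1.61-fold, with no library far from the others.

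In the Hoxc cluster (chr15:102921103-103036852) the level was high from Hoxc4 to Hoxc8 and dropped at Hoxc9. Hoxc6, a gene of the thoracic region, was the marked member, with 536, 291, 245 and 267 ends, or 8.93, 6.79, 4.48 and 4.47-fold. Hoxc4 followed with 6.89, 6.30, 3.47 and 4.08-fold, and missed the limit in TGFB1+miR-9-LOF only. From Hoxc8, at 5.86, 4.13, 2.96 and 3.26-fold, to Hoxc9, at 1.47, 1.54, 1.65 and 1.32-fold, the mean level fell 2.71-fold over 13.6 kb, in each of the 4 libraries. Hoxc10, which acts in the lumbar region, was the lowest, at 1.15, 1.45, 1.19 and 1.00-fold. As in Hoxa, the last gene was higher again. Hoxc13, which controls keratins of hair and nails, was at 5.11, 4.18, 3.29 and 2.76-fold, and its neighbour Hoxc12 at 2.07, 1.75, 1.54 and 1.49-fold.

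The Hoxd cluster (chr2:74668310-74765142) had promoters near or below the mean level of chromosome 2. Its 9 members ranged from 0.387 to 1.34-fold, 0.460 to 1.495-fold, 0.445 to 1.51-fold and 0.594 to 1.49-fold in the libraries, and no member of Hoxa, Hoxb or Hoxc had a lower mean level than the median Hoxd member. Hoxd8 had the lowest mean level of all 38 members, with 19, 16, 20 and 33 ends, or 0.387-fold [0.233, 0.604], 0.460-fold [0.263, 0.747], 0.445-fold [0.272, 0.687] and 0.675-fold [0.465, 0.949]. It stood at percentile 10.8 of all coding promoters. Hoxd4, its neighbour across the largest fall of the cluster in mean level, was at 0.834, 0.690, 1.00 and 0.962-fold. In TGFB1 and miR-9-LOF the fall from Hoxd3 to Hoxd4 was larger. Hoxd10, the highest by its mean, was at 1.32, 1.27, 1.51 and 1.49-fold, and Hoxd3 at 1.34, 1.495, 1.22 and 1.43-fold. Hoxd13, the digit gene at the 5′ end, was at 1.10, 1.24, 1.18 and 1.08-fold. In coverage, the 5-kb bins that hold the cluster, 105 kb in all, had 3362 ends of pairs at least 10 kb apart over the 4 libraries, wherever their other ends lay, and windows of that length over the genome had a median of 2893.

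The sequence before Hoxd13 (chr2:74668060-74668309, plus strand, GRCm38) is shown as the richest in CpG among the Hoxd members whose upstream bases overlap no exon. It holds 31 CpG, in capitals, more than the 28 of Hoxa5.
Hoxd13: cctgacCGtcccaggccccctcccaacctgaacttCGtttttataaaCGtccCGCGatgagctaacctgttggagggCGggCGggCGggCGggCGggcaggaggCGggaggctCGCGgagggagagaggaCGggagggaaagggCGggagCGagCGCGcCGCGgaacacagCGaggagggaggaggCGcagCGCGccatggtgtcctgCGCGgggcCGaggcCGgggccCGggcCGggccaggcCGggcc

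Across clusters, the low place of Hoxd recurred within the paralogue groups, while the order of Hoxa, Hoxb and Hoxc changed from group to group. Hoxd held the lowest member in 8 of its 9 groups. The exception was group 10, where Hoxc10 (1.20-fold mean level) was below Hoxd10 (1.40). In group 4 the mean levels ran from 9.81 (Hoxa4) through 5.50 (Hoxb4) and 5.19 (Hoxc4) to 0.872 (Hoxd4). In group 9 they ran from 6.52 (Hoxb9) through 2.31 (Hoxa9) and 1.49 (Hoxc9) to 0.780 (Hoxd9). Group 9 was thus the last group with a marked member. In group 13 the order was Hoxc13 (3.84), Hoxa13 (3.15), Hoxb13 (1.70) and Hoxd13 (1.15).

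Base composition and restriction sites did not rank the members in the same way. Hoxd promoters had the most CpG in their windows, with a median of 176 against 170 in Hoxa, 148.5 in Hoxb and 139 in Hoxc, where the median of all coding promoters was 86 and that of marked promoters 131. Hoxd8, the lowest in mean level, had the most, 262. Over all 21755 promoters CpG number and mean level had a Spearman correlation of 0.66, and over the 38 members of -0.08. The number of MboI sites, at which the chromatin was cut, correlated with the level at 0.55 over the members and 0.27 over all promoters. Hoxd windows had a median of 7 sites and those of the other clusters 10 each, and the part of this difference in the level was not tested. These correlations are across genes that share their libraries, and genes are not replicates.

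**Figure D2:**
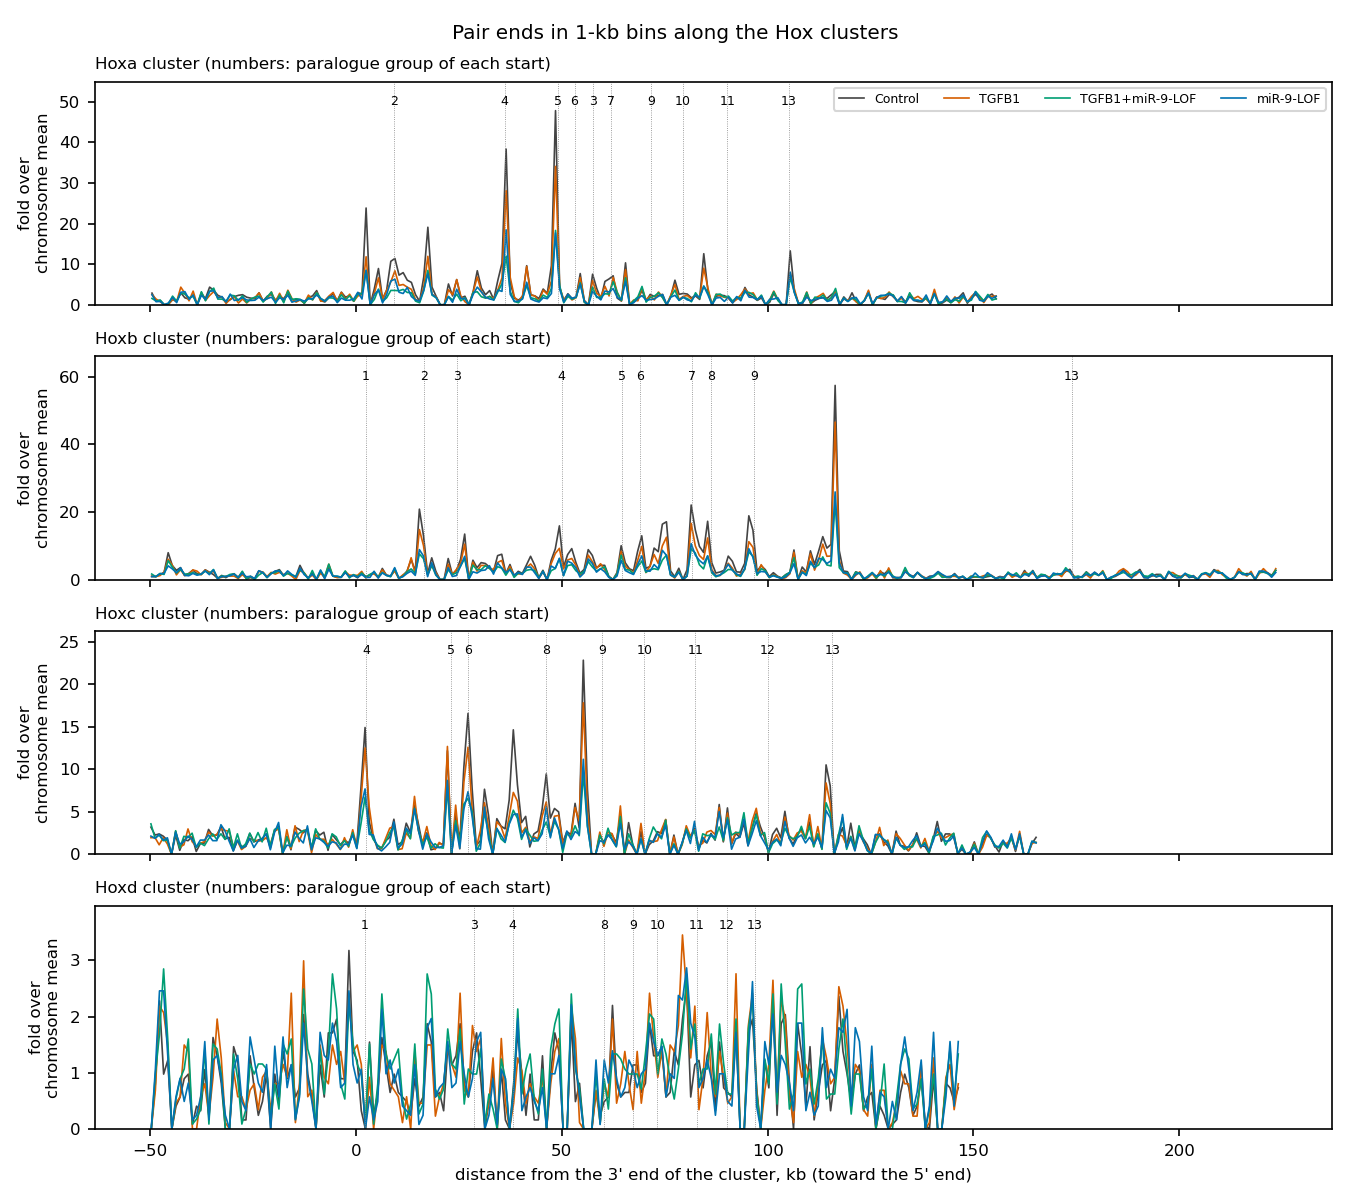
Pair ends in 1-kb bins along the 4 clusters with 50 kb on either side, as fold over the chromosome mean in the 4 libraries, plotted against distance along the cluster with the members' starts marked. Of the bins wholly inside a cluster, those at 4-fold or more in each library number 8 of 105 in Hoxa, 25 of 173 in Hoxb, 13 of 115 in Hoxc and 0 of 96 in Hoxd.

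Along the clusters, high bins were a small share at 4-fold and a larger one at 2-fold. Of the 1-kb bins in a cluster, 7.62% in Hoxa, 14.5% in Hoxb, 11.3% in Hoxc and 0 of 96 in Hoxd were at 4-fold or more in each library, where 0.649% of all bins of the genome were. At 2-fold in each library these shares were 36.2%, 40.5%, 40.0% and 1.04%, where 5.76% of all bins were. In 9, 5, 6 and 9 bins of the clusters no library held an end, so that gaps in the profile need not be gaps in the mark. In Hoxa, 7 of the 8 bins at 4-fold lay in the stretch of groups 1 to 8. In Hoxb 16 and in Hoxc 9 lay there, and 9 and 4 in the stretch of groups 9 to 13. Only bins wholly inside a cluster were counted. The bin at the start of Hoxa13 (chr6:52260590-52261589) crosses the end of the cluster and was left out. It stood at 13.3, 7.93, 6.74 and 8.03-fold. The highest bin of Hoxa was the one at the start of Hoxa5 (chr6:52203590-52204589), at 47.8, 34.1, 18.3 and 17.7-fold. In Hoxb and Hoxc the highest bin was not at a coding start, and both bins were singled out after their values were seen. That of Hoxb (chr11:96251316-96252315), at 57.5, 46.6, 23.2 and 25.9-fold, lay at the start of the long non-coding RNA gene Gm53, 19.6 kb beyond Hoxb9 in the gap before Hoxb13. That of Hoxc (chr15:102981103-102982102), at 22.9, 17.8, 9.51 and 11.2-fold, lay 4.57 kb from the start of Hoxc9 with no annotated start within 1 kb. The highest Hoxd bin, near Hoxd11, reached a mean of 2.64-fold.

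Non-coding genes in the clusters ranged from below the chromosome mean to the level of marked promoters. The miR-10 and miR-196 genes are old members of the Hox clusters whose products repress Hox messages. Their mature sequences are shown because copies with the same seed, which sets the targets, stand in clusters with different levels (RefSeq, GRCm38.p6, 5′ to 3′, seed bases 2 to 8 in capitals).
mmu-miR-10a-5p: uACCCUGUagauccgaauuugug
mmu-miR-10b-5p: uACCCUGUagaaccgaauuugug
mmu-miR-196a-5p: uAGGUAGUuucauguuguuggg
mmu-miR-196b-5p: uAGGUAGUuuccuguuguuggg
The miR-10 pair differs by U12A and the miR-196 pair by A12C, positions counted from the 5′ end and the first-named miRNA's base given first, both outside the seed. Mir10a, 1.10 kb from the start of Hoxb4, was at 9.67, 6.54, 4.14 and 4.87-fold, with 765, 357, 284 and 365 ends. Mir10b, 1.00 kb from the start of Hoxd4, was at 0.936, 0.805, 1.13 and 0.880-fold, with 46, 28, 51 and 43 ends. Mir10a was thus above Mir10b in each library. The windows of both miRNA genes share most of their bases with that of the neighbouring Hox gene, and the window is centred on the annotated hairpin and not on a start of the primary transcript.

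None of the miR-196 genes reached 4-fold in any library. Mir196a-1 (Hoxb, 6.29 kb from Hoxb9) had a mean of 0.840-fold, Mir196b (Hoxa, 2.795 kb from Hoxa9) 1.66-fold and Mir196a-2 (Hoxc, 3.68 kb from Hoxc9) 2.34-fold. Mir196a-1 therefore lay in a low stretch between the marked promoter of Hoxb9 and the high bin at Gm53. Among the long non-coding RNA genes, Hotairm1, at the 3′ end of Hoxa, was at 7.55, 4.34, 3.66 and 3.51-fold. Hotair, which is transcribed from the Hoxc cluster between Hoxc11 and Hoxc12, was at 3.56, 3.46, 2.72 and 3.06-fold. Hottip, beyond Hoxa13, had a mean of 2.40-fold and Haglr, at Hoxd1, of 0.711-fold.

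Partners and regulators of Hox proteins were described from lists, by counts only, to be read against the 19.5% of all coding promoters that were marked. Of 9 cofactor genes, which code for homeodomain proteins that bind DNA together with Hox proteins, 5 were marked. Pbx3 was the highest of them, at 18.7, 12.8, 8.61 and 7.43-fold. Of 9 upstream regulators, which are Cdx genes and genes of retinoic acid signalling, 1 was marked, the receptor gene Rara. Of 14 genes for Trithorax and Polycomb proteins, 6 were marked. These were Ash2l and Wdr5, subunits of the H3K4 methyltransferases, Kdm6a, an H3K27 demethylase, and Ezh2, Eed and Jarid2 of the Polycomb complex that methylates H3K27. None of 8 other homeobox genes related to the Hox clusters was marked, a list too short to be told from that share. Evx1 and Evx2, which stand beyond the 5′ ends of Hoxa and Hoxd, were at 1.03 and 1.14-fold in Control.

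Between libraries, the levels of the Hox promoters moved by amounts near those of other promoters with a like level. Ratios between libraries are log2 ratios of pair ends, each scaled to the library's valid pairs, and since the contrast of the libraries differed, each was set against the median ratio of the 4233 marked promoters, which was -0.45 in TGFB1 against Control, -0.72 in TGFB1+miR-9-LOF against TGFB1, -0.97 in miR-9-LOF against Control and -0.20 in TGFB1+miR-9-LOF against miR-9-LOF. Contrasts that share a library share its counting error. Of the 38 members, 7, 14, 15 and 5 stood 1.5-fold or more from that median in these contrasts, all above it, where 23%, 39.1%, 49.3% and 10.1% of all promoters stood that far from it in either direction. With windows of 5 kb on either side 3, 10, 12 and 1 members did. It was 10, 15, 18 and 6 members with the start at the 5′ end of the gene record. The share of all promoters was not counted under these other settings. The 7, 14, 15 and 5 members held none of the 6 marked ones. They were Hoxb1, Hoxc10, Hoxd1, Hoxd3, Hoxd8, Hoxd11 and Hoxd13 in the first contrast, Hoxa9, Hoxa11, Hoxb1, Hoxb13, Hoxc9, Hoxc11 and all Hoxd members but Hoxd3 in the second, Hoxa6, Hoxb1, Hoxb13, Hoxc9, Hoxc10, Hoxc11 and all 9 Hoxd members in the third, and Hoxa9, Hoxa11, Hoxb1, Hoxd1 and Hoxd12 in the last. The median member stood at 0.22, 0.44, 0.41 and 0.24 from the marked median, and without that subtraction at -0.23, -0.28, -0.56 and 0.04.

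Ratios depended on the level itself. Promoters below 2-fold in mean level had median ratios of 0.05, 0.04, 0.09 and 0.00 in the same 4 contrasts, and those at 2-fold or more but not marked -0.37, -0.52, -0.73 and -0.15. Of the members, 16 were in the low class, 16 in the middle class and 6 in the marked class. Against the median of its own class, a reference chosen after seeing the data, the median member stood at 0.04, 0.03, -0.16 and 0.13. Members past 1.5-fold then numbered 0, 1, 4 and 3 of 38, where 9.58%, 10.8%, 14% and 7.4% of all promoters were. These shares are near or below those of all promoters, and nothing particular to the Hox genes is read from them.

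**Figure D3:**
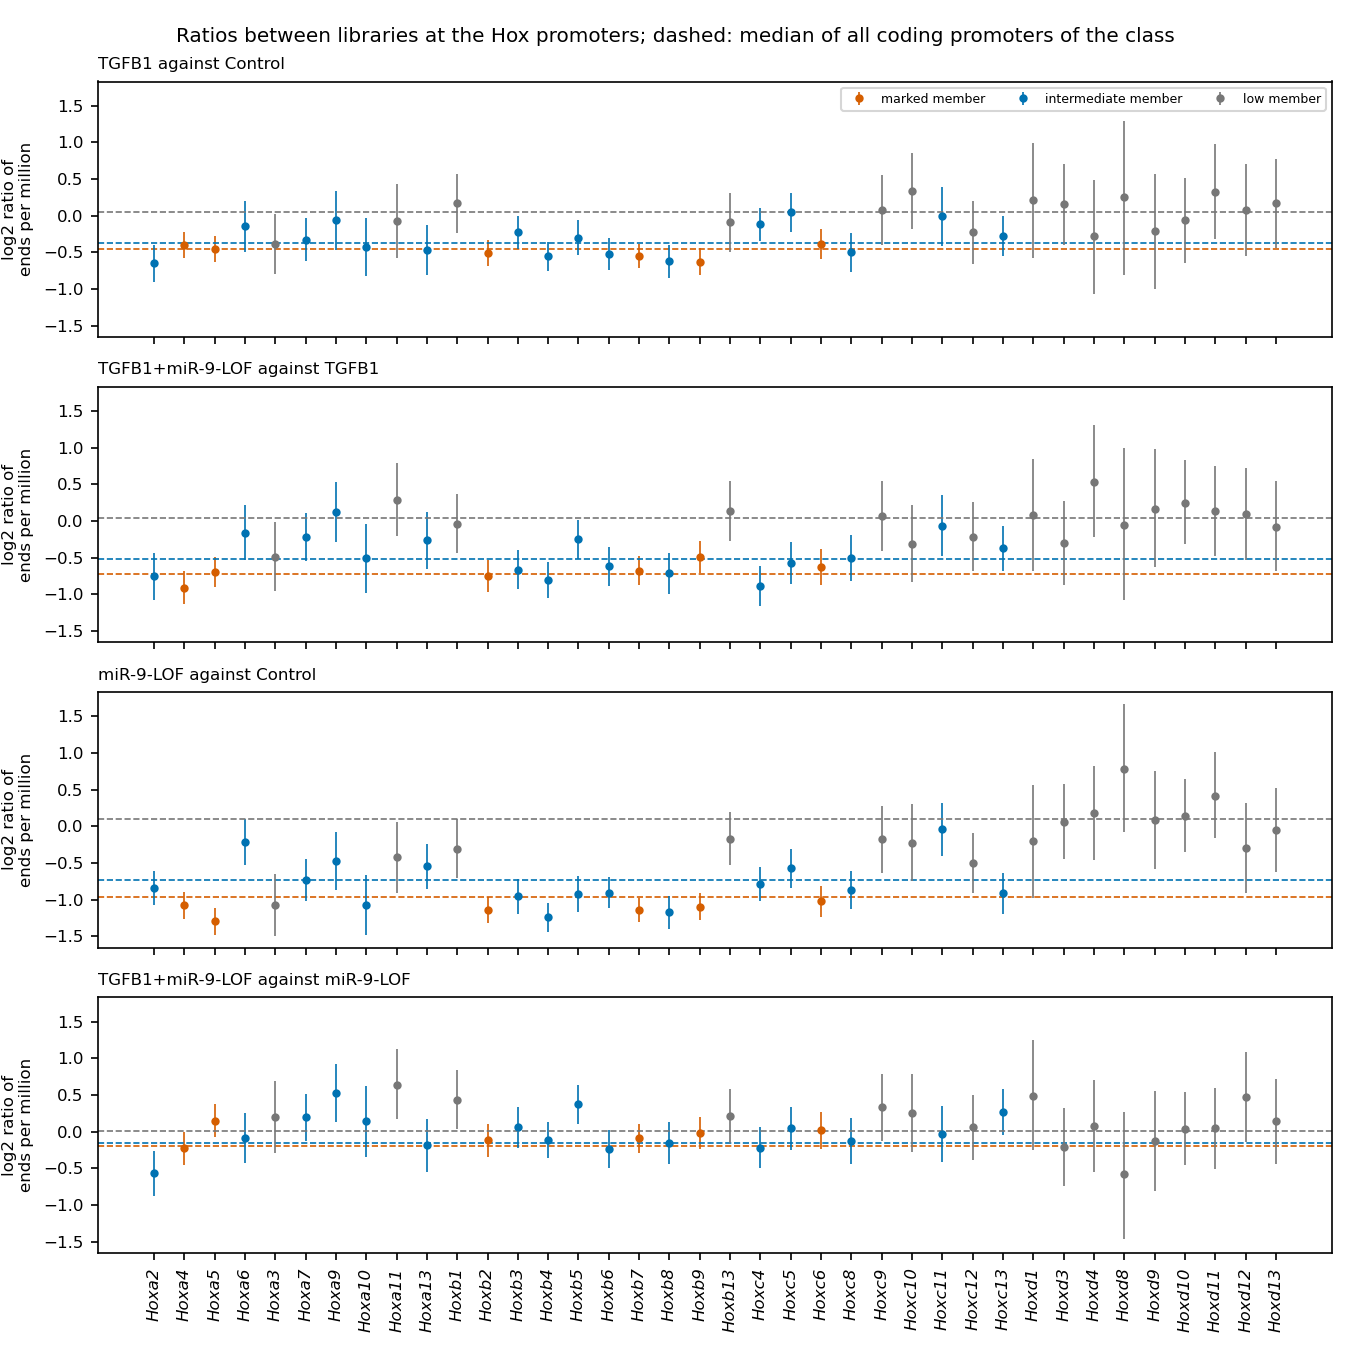
Log2 ratio of pair ends, scaled to valid pairs, for each of the 38 members in the 4 contrasts between libraries, with 95% counting intervals. Dashed lines give the median ratio of all coding promoters of each level class. Measured from the line of their class, the 6 marked members lie between -0.33 and 0.35. Hoxa3 in miR-9-LOF against Control lies farthest from the line of its class (-1.16).

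The members that passed were few and mostly had few ends. Hoxa9, which acts in blood cell progenitors, held 130, 88, 124 and 95 ends. It was above its class in TGFB1+miR-9-LOF against TGFB1 (0.63 [0.23, 1.04]) and against miR-9-LOF (0.68). Hoxa3, with 149, 81, 75 and 72 ends, was below its class in miR-9-LOF against Control, at -1.16 [-1.59, -0.75]. Its mean level of 1.99-fold is just inside the low class, and against the median of marked promoters it stood at -0.10. In the same contrast Hoxc12 (-0.59) was below its class, and Hoxc11 (0.68) and Hoxd8 (0.68) were above theirs. In TGFB1+miR-9-LOF against miR-9-LOF, Hoxa11 (0.64) was above and Hoxd8 (-0.59) below. The interval of Hoxd8, with 16 to 33 ends a library, held 0 in both of its contrasts.

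The 6 marked members stayed near the other marked promoters. Hoxa5 had a ratio of -0.45 [-0.62, -0.28] in TGFB1 against Control, -0.70 [-0.91, -0.48] in TGFB1+miR-9-LOF against TGFB1, -1.30 [-1.48, -1.11] in miR-9-LOF against Control and 0.15 [-0.07, 0.37] in TGFB1+miR-9-LOF against miR-9-LOF. Relative to the marked median these were 0.00, 0.03, -0.33 and 0.35, and the last 2 intervals left 0. Hoxb7 stood at -0.10, 0.05, -0.17 and 0.11. Over the 6 genes the range was -0.18 to 0.07 in the first contrast, -0.18 to 0.23 in the second, -0.33 to -0.06 in the third and -0.03 to 0.35 in the last.

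Contacts inside the clusters were described as the number of pairs at least 10 kb apart over the number expected from their distance and from the coverage of both 5-kb bins. Summed over the libraries, the clusters held 1517 (Hoxa), 4832 (Hoxb), 1444 (Hoxc) and 187 (Hoxd) such pairs, or 0.545 [0.518, 0.573], 0.420 [0.408, 0.432], 0.523 [0.496, 0.550] and 0.761 [0.656, 0.878] of the expected number. Compared with distance alone, without coverage, the ratios were 4.81, 6.88, 3.96 and 0.641. Hoxa, Hoxb and Hoxc thus had more read pairs than other places at the same distance and fewer than their many pair ends would give. Hoxd was below expectation on both counts. Since pair ends pile up where the mark is, more pairs need not mean more contacts. Windows of the genome of the same length had a median ratio to distance and coverage of 1.2 for each cluster. Of these windows, 0.448%, 0.0289%, 0.268% and 7.35% stood at or below Hoxa, Hoxb, Hoxc and Hoxd. Coverage and this ratio were inversely ranked over the windows, with a Spearman correlation of -0.85 to -0.87, and Hoxa, Hoxb and Hoxc had more coverage than 99.7% or more of them. The ratio is therefore not compared between clusters.

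**Figure D4:**
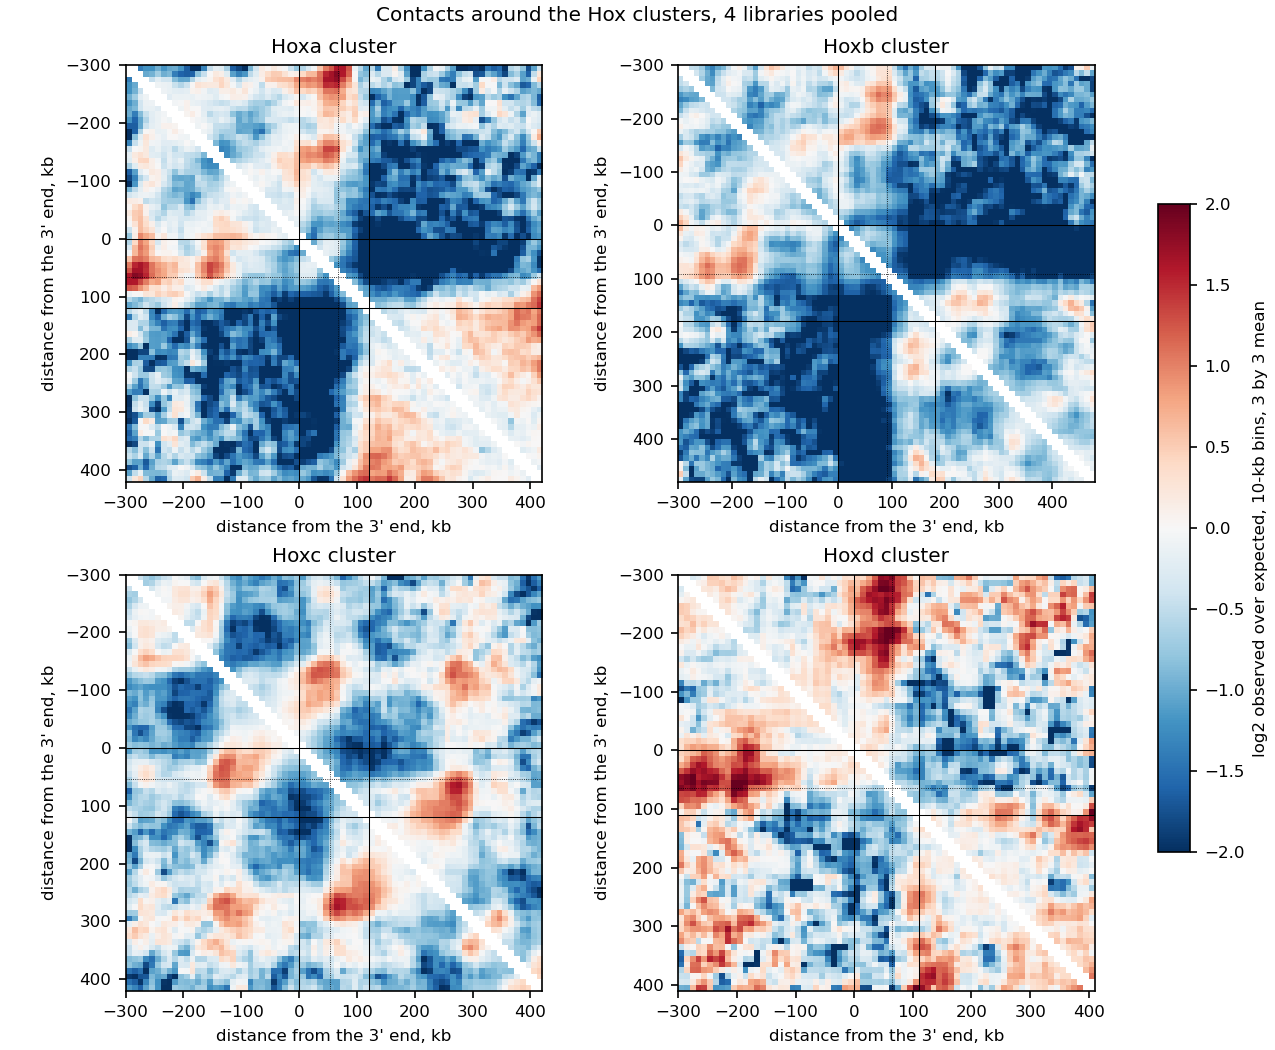
Observed over expected contacts in and around each cluster, in 10-kb bins smoothed over neighbouring bins and summed over the 4 libraries (log colour scale). Solid lines mark the ends of the cluster and dotted lines the split between paralogue groups 1 to 8 and 9 to 13. Inside the cluster, the blocks off the diagonal between the dotted and solid lines hold the contacts across the split. Counted in 5-kb bins without smoothing, these stood at 0.305 (Hoxa), 0.274 (Hoxb), 0.341 (Hoxc) and 0.562 (Hoxd) of expectation.

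Within each cluster, contacts across the line between groups 1 to 8 and groups 9 to 13 were fewer, relative to expectation, than contacts on either side of it. In Hoxa the ratio to expectation was 0.676 [0.636, 0.718] within groups 1 to 8, 0.592 [0.487, 0.713] within groups 9 to 13 and 0.305 [0.268, 0.345] across. Across the split it was 0.289, 0.295, 0.352 and 0.310 in the libraries, below both sides in each library, although in both libraries with the antagomiR the interval of groups 9 to 13 against the contacts across included no difference. Hoxb had 0.525 and 0.464 on the 2 sides and 0.274 [0.259, 0.291] across, and Hoxc 0.636, 0.726 and 0.341 [0.303, 0.382]. In Hoxd, with 50 pairs across, the values were 1.07, 0.635 and 0.562 [0.417, 0.742]. There groups 9 to 13 did not differ from the contacts across beyond counting error (log2 ratio 0.18 [-0.58, 0.90]), and in miR-9-LOF the ratio across was 0.838 [0.512, 1.29], above that of groups 1 to 8 at 0.804 [0.468, 1.29]. Without Control, or without TGFB1+miR-9-LOF, the interval of the contacts across against both sides of Hoxd included no difference (log2 -0.54 [-1.13, 0.03] and -0.55 [-1.13, 0.01]).

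The contrast between the contacts across the split and those on either side was also measured in windows of the same length over the genome that expected at least 20 pairs. In 0.772% of the windows it was as strong as in Hoxa, in 2.33% as strong as in Hoxb, in 1.04% as strong as in Hoxc and in 7.02% as strong as in Hoxd. The genome windows are split into parts of the same lengths as those of the matching cluster. They hold all kinds of sequence, and most have far less coverage than Hoxa, Hoxb and Hoxc. The split between the groups does not fall at the step in promoter level in every cluster. In Hoxa the step lies between Hoxa5 and Hoxa6 and in Hoxb beyond Hoxb9, while in Hoxc the split and the step both lie between Hoxc8 and Hoxc9.

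Contacts within the clusters differed between libraries, most plainly in Hoxb. There the ratio to expectation was 0.370 [0.354, 0.386] in Control, and 0.443 [0.416, 0.471], 0.490 [0.456, 0.525] and 0.481 [0.450, 0.513] in the others. The Control library, which had the highest promoter levels, had the lowest ratio in Hoxa (0.508) and Hoxc (0.471) as well. In Hoxd, where no promoter was marked, the order was the other way, with 0.890 in Control and 0.695 to 0.771 in the others, and these intervals overlapped. The part of the level in these differences was not tested.

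Beyond their ends, Hoxa, Hoxb and Hoxd had more contacts with the 1 Mb on the 3′ side than with that on the 5′ side. The ratio to expectation was 1.01 on the 3′ and 0.586 on the 5′ side for Hoxa, 0.691 and 0.403 for Hoxb, 0.844 and 0.737 for Hoxc, and 1.78 and 0.964 for Hoxd. The 3′ side was thus favoured 1.72-fold, 1.71-fold, 1.15-fold and 1.85-fold. For Hoxd this was seen in each library, with 1.95, 1.69, 1.95 and 1.80-fold, and the log2 ratio of the sum was 0.89 [0.75, 1.03]. For Hoxc the preference was weak, at 0.20 [0.13, 0.27] on the log2 scale. In TGFB1+miR-9-LOF its interval held 0 (0.05 [-0.10, 0.21]), and with flanks of 500 kb it was gone. Differences of this size between the flanks are common. The 2 flanks differed at least as much, in either direction, in 24.8% of genome windows for Hoxa, 26.1% for Hoxb, 73.9% for Hoxc and 19.8% for Hoxd.

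Which flank a gene favoured changed along each cluster. Contacts of each member's window with the 2 flanks were each set over the number expected from coverage and from the fall of contacts with distance over the genome. Whether contacts fell off with distance in the same way at the clusters was not tested. The 3′ flank was favoured beyond counting error by 26 of 38 members and the 5′ flank by 7, and 5 favoured neither. Without Control, 27 favoured the 3′ flank and 4 the 5′ flank, with Hoxc9, Hoxc11 and Hoxc12 no longer beyond counting error, and without each of the others 26 the 3′ flank and 6 or 7 the 5′ flank. The 3′ flank lies downstream of the Hox genes, all of which are transcribed towards it. For all 20989 coding promoters with room for both flanks, set 61.5 kb from the start on either side, 23.6% favoured the downstream flank and 23.8% the upstream flank by the same rule. With flanks set that way, 22 of the 34 members with room favoured the downstream flank and 9 the upstream flank. The members had more pairs behind the call, with a median of 142 against 102, and a larger number of pairs makes the call easier to reach. All Hoxb members but Hoxb13 favoured the 3′ flank. So did Hoxa2 to Hoxa9, Hoxc4 to Hoxc8, and Hoxd1 to Hoxd10. The 7 members that favoured the 5′ flank were Hoxa13, Hoxb13, Hoxc9, Hoxc11, Hoxc12, Hoxc13 and Hoxd13. The side was the same in 4 of 4 libraries for all of these genes except Hoxd8 and Hoxc12, for which it was the same in 3 of 4. Hoxa10, Hoxa11, Hoxc10, Hoxd11 and Hoxd12, which favoured neither, stood between those with opposite preferences in their clusters, except that Hoxc10 stood among genes that favoured the 5′ flank.

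**Figure D5:**
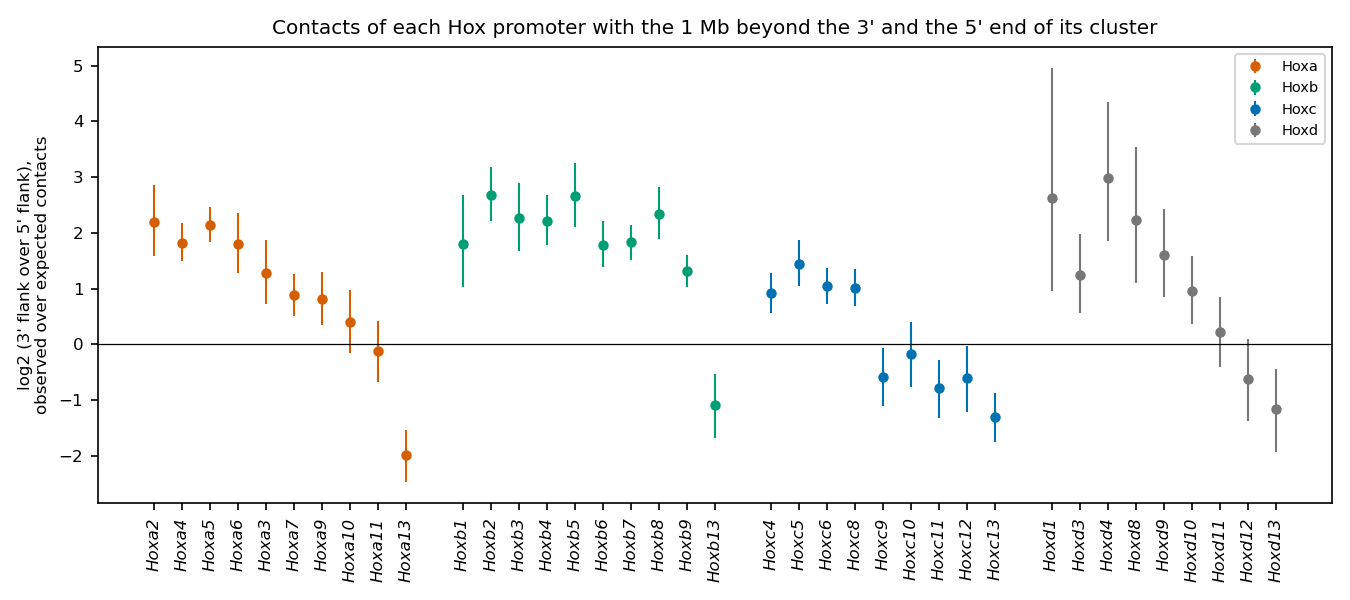
Log2 ratio of the 3′ over the 5′ flank, each as observed over expected contacts of the member's window with the 1 Mb beyond that end of its cluster, summed over the 4 libraries, with 95% counting intervals, for the 38 members in cluster order. The ratio runs from 2.98 at Hoxd4 and 2.69 at Hoxb2 down to -1.99 at Hoxa13, and the last member of each cluster lies below 0.

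The ratio of the 2 flanks differed widely between the ends of a cluster. In Hoxa and Hoxd it passed through values between, with log2 ratios of 0.40 at Hoxa10, -0.12 at Hoxa11, 0.23 at Hoxd11 and -0.62 at Hoxd12. Hoxa5 had 560 pairs with the 3′ flank, 1.37 of expectation, and 100 with the 5′ flank, 0.309 of expectation, for a log2 ratio of 2.15 [1.84, 2.47]. At the other end of the same cluster, Hoxa13 had 46 and 288 pairs, 0.418 and 1.66 of expectation, for -1.99 [-2.47, -1.54]. The sign was the same in 4 of 4 libraries for both genes. Hoxb2 stood at 2.69 [2.22, 3.19] and Hoxb13 at -1.09 [-1.68, -0.53], and Hoxc6 at 1.05 [0.73, 1.37] and Hoxc13 at -1.30 [-1.75, -0.88]. In Hoxd the counts were smaller but the span was as wide. Hoxd4 had 70 and 7 pairs, for 2.98 [1.86, 4.35], Hoxd8 36 and 8, for 2.23 [1.10, 3.54], and Hoxd13 21 and 71, for -1.16 [-1.94, -0.44]. The unmarked Hoxd members thus changed side along their cluster too. The point at which the side changed lay between Hoxa9 and Hoxa13, between Hoxb9 and Hoxb13, between Hoxc8 and Hoxc9, and between Hoxd10 and Hoxd13.

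The 3 flank bins of each cluster with the highest ratio to expectation held no coding start, and lay 133 to 182 kb from Hoxb and Hoxc, 276 to 976 kb from Hoxa and 765 to 815 kb from Hoxd. Bins of 10 kb with at least 10 pairs were ranked. For Hoxa the first (chr6:51170001-51180000), 976 kb beyond the 3′ end and in no annotated coding gene, had 50, 19, 18 and 22 pairs with the cluster, 4.38 [3.60, 5.29] of expectation. The second (chr6:51870001-51880000), 276 kb from the cluster, lies inside Skap2, an adaptor protein gene, and had 33, 22, 14 and 22 pairs, 3.37 [2.72, 4.14] of expectation. The 3 highest bins of Hoxb lay side by side inside Skap1, the paralogue of Skap2 (chr11:96530001-96560000), at 1.48 to 1.56 of expectation. For Hoxc the first bin lay on the 5′ side (chr15:102760001-102770000, 126 pairs, 2.23 of expectation) and the next on the 3′ side (chr15:103170001-103180000, 240 pairs, 2.02 of expectation). For Hoxd they lay beyond the 3′ end, with 10 to 16 pairs each, the highest (chr2:75580001-75590000) at 5.63 [3.08, 9.44] of expectation. In these Hoxd bins 2.01 to 3.23 pairs were expected, so the limit of 10 pairs could be met only at a high ratio. The intervals of all ranked bins take no account of the ranking.

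The related genes beyond the 5′ ends, whose contacts were looked at after the other flank values were seen, differed between the clusters. Evx1 had 4 pairs with Hoxa where 35.8 were expected, a ratio of 0.112 [0.030, 0.286], and Evx2 had 12 with Hoxd where 17.5 were expected, 0.684 [0.353, 1.20]. The promoter of Evx1 lies 52.6 kb from its cluster and that of Evx2 8.89 kb, so the distances are not alike.

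Between clusters on different chromosomes there were 4 pairs in all 4 libraries together, where 2.05 were expected from the coverage, a ratio of 1.95 [0.531, 4.99]. Of these, 3 joined Hoxa to Hoxb (2 in Control and 1 in TGFB1) and 1 joined Hoxb to Hoxc. Over all clusters the interval thus included 1. For Hoxa with Hoxb alone, 1 of 6 pairs of clusters, 0.599 were expected, a ratio of 5.01 [1.03, 14.6] that is not adjusted for the 6 and rests on 3 pairs. Without Control, 1 pair was left between clusters, at 0.821 [0.0208, 4.57] of expectation.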

How the data were processed

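H3K4me3 HiChIP-seq was done in MLg cells under 4 conditions, with 1 library each. Per the study's methods, the authors aligned the reads to mm10 and assigned them to MboI fragments with HiC-Pro, which removed duplicates. They deposited a list of valid pairs for each library, with the position, strand and fragment of both ends and the aligner's mapping quality score. Here that score served as a filter in 1 alternative. The lists hold 1 line per pair, and the lines were counted here. At least 99.96% of the ends checked lay within 1 fragment of the numbering of GRCm38. The labels' cell number differs from that of the methods.

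Each gene had 1 TSS, that of its coding transcript with the best annotation support in the GENCODE annotation of GRCm38, and a window of 2 kb on either side. Ends per kb were divided by the chromosome mean of the library. Expected contacts followed from the distance and the coverage of 5-kb bins at least 10 kb apart, scaled to match the observed pairs at every distance over chromosomes 1 to 19 and X. Bins of 10 kb were used to rank places in the flanks. Intervals were exact Poisson intervals or, for ratios, exact binomial intervals conditional on the total, at 95%, and cover counting error only. They take pairs as independent. Copy number along the chromosomes was not corrected for. Python 3.11.15, numpy 2.4.6, pandas 2.3.3, scipy 1.17.1, pyarrow 21.0.0 and matplotlib 3.10.9 were used. Promoter calls between libraries and the contacts of a cluster with its flanks were tested on simulated data, and the other procedures were not. The 250 bases upstream of a start were read from the genome of the same build, and miRNA sequences came from RefSeq. Some items are not reported here.

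Members named with values were those marked in all 4 libraries, those on either side of the largest fall in mean level along a cluster, those past 1.5-fold in a contrast, and the highest and lowest mean level of each cluster. Others were named by their place in the clusters or as examples of their group. The members, lists and rules were chosen with earlier results of these data known. Alternatives were other windows, folds, backgrounds and starts, a mapping quality of at least 30, each pair of fragments counted once, longer pairs only, density per MboI site, other bins, distances and flanks, and expectation from distance alone. Leaving out each library in turn, references by level class, and the flank counts of single members under distance alone, were chosen after seeing the data.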

Additional observations from a re-analysis of the deposited data

How the results depend on the processing

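Of 188 recomputed values, 31 moved by more than the limits set and 1 changed sign. The limit was 1.5 times for counts and the counting interval for other values. For the medians over members it was the interval of a typical single member (0.34 to 0.39), which is wide for a median. The count of marked members, 6, became 20 at a limit of 2-fold, 0 at 8-fold, 0 with windows of 5 kb on either side, and 2 (Hoxa4 and Hoxa5) against the mean of the surrounding 1 Mb on either side. It was 4 (none in Hoxc) with the start at the 5′ end of the gene record and 7 per MboI site. Of these other settings, the share of all coding promoters was counted at 2-fold only. Without subtraction of the marked median, the median member stood at -0.23 in TGFB1 against Control, -0.28 in TGFB1+miR-9-LOF against TGFB1 and -0.56 in miR-9-LOF against Control, in place of 0.22, 0.44 and 0.41, and in TGFB1+miR-9-LOF against miR-9-LOF at 0.04. Against its own level class it stood at 0.04, 0.030, -0.16 and 0.13 in these 4 comparisons. Over the other settings it ran from 0.14 (windows of 1 kb on either side) to 0.29, from 0.31 to 0.49, from 0.30 to 0.51 and from 0.19 to 0.27. Members past 1.5-fold, 7, 14, 15 and 5, became 3, 10, 12 and 1 with windows of 5 kb on either side. Without subtraction they became 3, 11, 19 and 1. With the start at the 5′ end of the gene record they became 10, 15, 18 and 6. Against the level class they became 0, 1, 4 and 3. With pairs at least 20 kb apart the last of the 4 comparisons had 3. Among these other settings, the share of all promoters past 1.5-fold was counted against the level class only.

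Expectation from distance alone gave ratios within the clusters of 4.81 (Hoxa), 6.88 (Hoxb), 3.96 (Hoxc) and 0.641 (Hoxd). Contacts across the split relative to both sides, in log2, then moved from -1.13 to -1.66 in Hoxa and from -0.89 to -0.69 in Hoxb, and the preference for the 3′ flank became 1.10, 0.88, 0.32 and 1.035, in place of 0.78, 0.78, 0.20 and 0.89. With pairs at least 20 kb apart, the contacts across in Hoxa were at -1.52, and those within Hoxb at 0.463 of expectation. Those within Hoxb were at 0.3999 with a mapping quality of at least 30. With 10-kb bins the contacts across in Hoxb were at -1.06 and the flank preference of Hoxd at 0.71. Flanks of 500 kb gave 0.92 for Hoxa, 1.06 for Hoxd and -0.0085 for Hoxc, whose sign changed. The cause of these changes was not tested, beyond what each setting itself alters. Of the 38 members, 27 in place of 26 favoured the 3′ flank and 6 in place of 7 the 5′ flank with distance alone.

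Each library was also left out in turn. The count of marked members was then 6 to 8, and it could not fall, since the call asks for 4-fold in each library kept. Contacts within a cluster ran from 0.408 (Hoxb, without miR-9-LOF) to 0.788 (Hoxd, without TGFB1+miR-9-LOF). Without Control these were 0.575 in Hoxa, 0.468 in Hoxb and 0.557 in Hoxc, each above the interval of all 4 libraries, and 4 in place of 7 members favoured the 5′ flank. No paired analysis was possible because each condition had 1 library. Depth limits Hoxd most, with 16 to 33 ends at Hoxd8 and 187 contacts within the cluster, and the contacts between clusters, with 4 pairs.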
